A study of Drosophila melanogaster with 16 samples.

Results

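The CR-numbered genes of Drosophila melanogaster are loci that the fly annotation first listed as giving RNA without a protein product, and most of them still have a number in place of a name. The ones described here are the rows of the deposited table whose symbol is CR followed only by digits, without CR32207, and which were selected on their measured level: at least 10 normalised counts as the mean of all 16 libraries. A normalised count is a gene's read count divided by a size factor for its library. The rule kept 105 of 2020 CR-numbered rows, or 5.20%, and the same minimum kept 7824 of all 16727 rows, or 46.8%. Of the remaining CR-numbered rows, 686 had no read in any library and 1229 had reads but a lower mean. The minimum uses the measured level, so levels are given below as a description, and a gene that passed it through some of the groups only had to differ between them.

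RNA was sequenced from female larvae at the end of larval life (LL3/P0), as fat body (FB), the fly's storage and endocrine organ, or as fat body with ovaries. The groups were fat body with ovaries labelled homozygous, fat body labelled homozygous, fat body with ovaries from heterozygotes and fat body from heterozygotes, with 4 libraries each. The heterozygotes were dLmx1a delta1 over TM3-GFP. The libraries titled homozygous carry dLmx1a delta1 over a second allele whose number counts up from sample to sample in the genotype field, and the titles were followed here. dLmx1a is a LIM-homeodomain transcription factor of the ovary's terminal filaments. TM3 is a balancer of chromosome 3 carried by the heterozygotes only, so the dLmx1a allele and the rest of that chromosome cannot be told apart in the genotype comparisons. No label says that the replicates came from separate animals or pools, so the p-values cover only the spread from library to library. In such bulk tissue fewer cells of a type and less RNA per cell cannot be told apart.

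Long non-coding RNAs are transcribed by RNA polymerase II and often capped, spliced and polyadenylated, but carry no long open reading frame. Some act as scaffolds or guides for chromatin proteins, some are the precursors from which microRNAs or small nucleolar RNAs (snoRNAs) are cut, and for many it is the act of transcription, if anything, that touches a neighbouring gene. In flies many are known for narrow expression in the germline, the testis or the nervous system. Antisense RNAs are read from the strand opposite to another gene and can pair with its transcript.

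Depth was 19022106 to 32755588 reads on genes per library. dLmx1a itself (CG32105 in the table) had 564, 671, 742 and 682 normalised counts in fat body with ovaries labelled homozygous, 4.59, 0, 0.974 and 0 in fat body labelled homozygous, 578, 518, 723 and 649 in heterozygous fat body with ovaries, and 2.83, 23.5, 1.11 and 0 in heterozygous fat body. Its values in the genotypes with ovaries thus overlapped (log2 fold 0.11 ± 0.75, limma adjusted p = 0.984), and the labels do not say how much of the transcript the delta alleles remove. The error of this fold is pooled over all 4 groups. It therefore includes the spread of the fat body values near 0 and is not that of the groups compared alone. The heterozygous fat body replicate 2 stood apart: it held 34.8 normalised counts of vas and 54.2 of piwi, both germline genes, against at most 9.43 and 4.30 in the other 7 fat body libraries. Results that rest on it are given with and without it. Of the marker lists, 20 of 23 tested germline genes, 6 of 10 terminal filament and cap cell genes and 6 of 9 genes of other ovarian somatic cells were higher with ovaries in the libraries labelled homozygous, and 20, 8 and 6 in heterozygotes. Among all genes 19.8% and 18.6% were higher in these comparisons. Going the other way were 1 germline gene in the libraries labelled homozygous and 2 in heterozygotes. Lower with ovaries in the libraries labelled homozygous were 2 of 10 fat body genes, 3 of 11 muscle genes and 1 of 10 blood cell genes, and in heterozygotes 2 of 10, 2 of 11 and 2 of 10, where 13.2% and 10.7% of all genes were lower. Of these lists 1 blood cell gene was higher in each genotype, and 1 muscle gene was higher in the libraries labelled homozygous.

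The annotation did not bear out the label non-coding for every gene. Under current names 77 of the 105 are long non-coding RNAs (lncRNAs), 19 are antisense RNAs, 3 are ribosomal RNA pseudogenes, 1 is another pseudogene (CR43727), and 2 were not found (CR40963 and CR40962). The other 3 are now protein-coding genes: CR44404 is IBIN, CR45045 is CG45045 and CR43051 is CG43051. IBIN is a short peptide gene induced by infection. Most of the genes gave few reads. The median of their means was 28.7 normalised counts, against 276 over all 7824 kept genes, and 34 genes had a mean from 10 to under 20, while 16 had 100 to under 1000 and 5 had 1000 or more. Just inside the minimum stood CR44932 (10.3), CR43981 (10.3), CR44452 (10.5), CR43951 (10.7) and CR45467 (10.7), and just outside it CR44119 (9.75), CR44544 (9.63), CR45140 (9.59), CR44295 (9.52) and CR43432 (9.49). The mean was at least 10 in all 4 groups for 82 genes, in 3 groups for 11 and in 2 groups for 12. CR32027 and CR44889 reached it in both groups with ovaries and neither fat body group, and 8 genes did the reverse.

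Most of these loci are short and lie in or beside other genes. Of the 103 genes placed on the genome (dm6, the assembly of the submitters' processing notes), 53 had a single exon, and the median exon length was 999 bases. In all 68 overlapped another gene, 48 shared exon bases with one, and 59 overlapped a protein-coding gene, 40 of them on the opposite strand only. Sources used here do not give the strand setting of the read counting, so reads of a CR-numbered gene and of a gene that shares its bases cannot be told apart. The median coefficient of variation within a group was 32.5% for the 32 genes that averaged at least 50 normalised counts, against 13.2% for all kept genes of at least 50. This range has no upper bound, so the sets are not matched in level. The 32 include the ribosomal RNA pseudogenes, IBIN and CG45045, whose libraries varied widely. For the 73 genes between 10 and 50 the median coefficient was 31.9%, against 32.6% for all kept genes there.

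Ribosomal sequences held most of the reads of the set. CR41602, an 18S ribosomal RNA pseudogene at chrX:23211192-23213166, had 60540, 173573, 82879 and 29214 normalised counts in fat body with ovaries labelled homozygous and 28647, 108807, 91869 and 12637 in fat body labelled homozygous. In heterozygotes it had 76421, 32988, 45968 and 21834 in fat body with ovaries and 13248, 11821, 69373 and 77210 in fat body alone. All groups overlapped throughout, and single libraries of 1 group differed by up to 8.61-fold. CR40677, a 2S pseudogene, and CR41609, a 28S pseudogene, moved with it from library to library, as did the unplaced CR40963: CR41602 exceeded CR40963 by 5.85-fold to 7.50-fold, CR40677 by 8.60-fold to 12.1-fold and CR41609 by 10.8-fold to 14.7-fold over the 16 libraries. CR40963 is in no annotation used here and stands with the pseudogenes by its counts only. CR41602, CR40963, CR40677 and CR41609, or 4 rows, together took 45.2% to 93.9% of the normalised counts of the 105 genes. None of the 4 passed the test in any comparison. CR40962, the other row not found in the annotation, was also highest in replicate 2 of both tissues labelled homozygous (47.0 and 46.1 normalised counts). It was left among the other genes. Ribosomal RNA comes from many near-identical repeats, and the sources used here do not state how the counting treated reads with several hits, so these values are uncertain. The cause of their spread was not tested.

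CR42862 held the next largest share. This lncRNA at chr3L:224106-230964 has 3 exons and shares 246 exon bases with CG33229, which averaged 289 normalised counts. It had 4690, 10616, 7078 and 8756 normalised counts in fat body with ovaries labelled homozygous and 5971, 12630, 8758 and 12708 in fat body labelled homozygous. It had 6344, 10096, 9759 and 7530 in heterozygous fat body with ovaries and 8104, 12558, 9249 and 9541 in heterozygous fat body. Replicate 1 was the lowest library in each of the 4 groups, and the groups overlapped. The same held for 9 of the 105 genes and for 604 of all 7824 kept genes, or 7.72%. Per kilobase of exon CR42862 averaged 1645 normalised counts, against 3430 for IBIN (CR44404), 792 for CG45045 (CR45045), 230 for CR42549 and 206 for CR45593. IBIN and CG45045 varied widely between libraries of 1 group. IBIN (CR44404, chr2R:17671068-17671295) had 371, 206, 186 and 967 normalised counts in fat body with ovaries labelled homozygous and 337, 904, 1488 and 1334 in fat body labelled homozygous, and 270, 910, 482 and 836 in heterozygous fat body with ovaries and 715, 478, 1274 and 1756 in heterozygous fat body. Its tissue fold in the libraries labelled homozygous, -1.36 ± 0.60, passed only with the replicate number as a block (adjusted p = 0.0969 without it and 0.0305 with it). CG45045 (CR45045), inside CG14322, had 849, 87.1, 28.9 and 12.6 in fat body with ovaries labelled homozygous and 471, 74.0, 90.6 and 23.0 in fat body labelled homozygous, and 31.2, 597, 27.4 and 121 in heterozygous fat body with ovaries and 334, 157, 82.4 and 232 in heterozygous fat body. All groups of both genes overlapped, and no comparison called CG45045. Without CR42862, the 3 ribosomal RNA pseudogenes and CR40963 the other 100 genes summed to 4933 ± 468 normalised counts in fat body with ovaries labelled homozygous, 6999 ± 634 in fat body labelled homozygous, 5013 ± 533 in heterozygous fat body with ovaries and 6834 ± 1044 in heterozygous fat body (SD, n = 4 each).

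**Figure D1:**
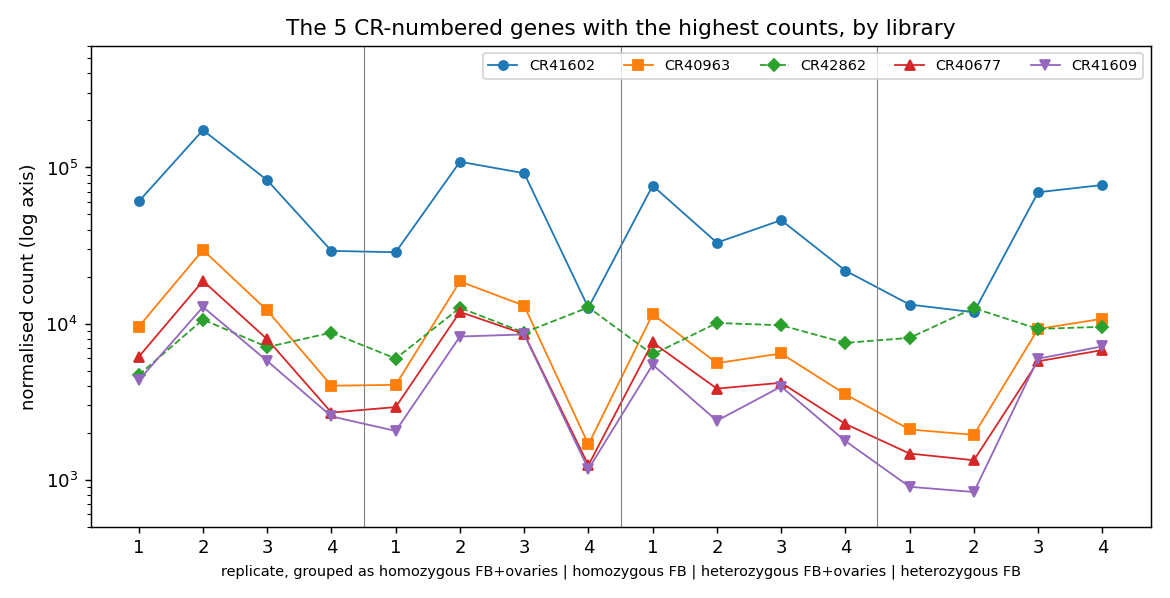
Normalised counts (log axis) of the 5 CR-numbered genes with the highest means in each of the 16 libraries, by group and replicate. The 18S pseudogene CR41602 and the 3 rows under it rise and dip together between 11821 and 173573 for CR41602, while CR42862 (dashed) stays between 4690 and 12708.

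The first comparison asked which of these RNAs come with the ovary. Fat body with ovaries was set against fat body within each genotype, with limma on log2(normalised count + 1) and Benjamini-Hochberg adjustment over all 7824 genes at 0.05. Folds are log2 on that scale, which understates the change of low genes. In the libraries labelled homozygous 3 of the 105 genes were higher with ovaries and 15 lower, against 19.8% higher and 13.2% lower of all genes tested. In heterozygotes 2 were higher and 8 lower, against 18.6% and 10.7%. The median fold of the 105 genes was -0.44 in the libraries labelled homozygous and -0.35 in heterozygotes, against -0.05 over all genes in each genotype. Genes of like level can be set beside them: of the 73 with a mean of 10 to under 50, 3 were higher and 11 lower in the libraries labelled homozygous, against 33.6% and 2.97% of all genes in that range, and 2 were higher and 6 lower in heterozygotes, against 30.9% and 3.45%.

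How many were lower depended on the scaling. With every library scaled to the same total of reads the median fold of all genes moved to 0.37 in the libraries labelled homozygous and 0.34 in heterozygotes. Then 7 genes were higher and 1 lower in the libraries labelled homozygous, against 46.4% and 0.498% of all genes, and 5 were higher and 1 lower in heterozygotes, against 43.9% and 0.818%. In the libraries labelled homozygous the median of the 105 genes minus that of all genes was -0.40 at equal totals and -0.39 with the deposited size factors, and in heterozygotes it was -0.32 and -0.31. The summed counts of the fat body marker list ran from 11045971 to 12760492 with ovaries and from 17023098 to 18076610 without in the libraries labelled homozygous, and from 10528417 to 11607874 with and from 14881541 to 16047913 without in heterozygotes. The muscle list summed to 2150 to 2872 with ovaries and 2960 to 4969 without in the libraries labelled homozygous, and to 1842 to 2785 with and 2974 to 4771 without in heterozygotes. The part of either list in the lower calls was not tested. The numbers also moved with single libraries: in heterozygotes 6 genes were called without fat body with ovaries replicate 1 and 4 without fat body replicate 3 or 4. In the libraries labelled homozygous 33 were called without fat body replicate 1 and 10 without replicate 3 of either tissue. The shares of all genes called in these fits are not given here. These counts therefore show only how the calls moved and are no result about the members. With the replicate number as a block, 35 were called in the libraries labelled homozygous, 4 higher and 31 lower, against 24.2% and 23.9% of all genes.

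**Figure D2:**
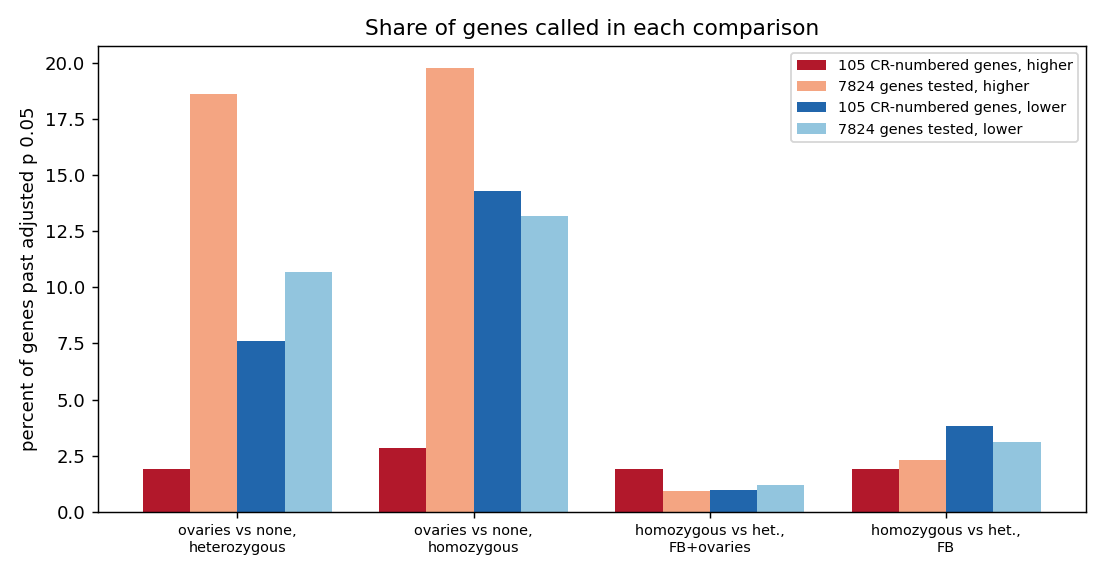
Percent of the 105 CR-numbered genes and of all 7824 genes tested that passed an adjusted p of 0.05, higher or lower, in the 4 comparisons. With ovaries 2.86% of the CR-numbered genes were higher in the libraries labelled homozygous and 1.90% in heterozygotes, where all genes reached 19.8% and 18.6%.

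CR32027 was the only one of the 105 genes higher with ovaries in both genotypes. It passed the minimum through the groups with ovaries only, so a tissue difference was built into its selection. Its tissue values below describe it and are no separate support. It is a lncRNA of 3 exons at chr3L:18841579-18842786, inside the gene of the citrate transporter Indy and on its opposite strand, with no exon bases shared. Its normalised counts were 35.3, 34.4, 41.3 and 34.5 in fat body with ovaries labelled homozygous, against 0, 1.21, 2.92 and 0.998 in fat body labelled homozygous, where the 0 allows up to 4.59 (3 reads). In heterozygotes they were 42.2, 28.4, 47.3 and 29.4 in fat body with ovaries, against 4.72, 12.3, 3.34 and 7.52 in fat body. All 8 libraries with ovaries lay above all 8 without. The folds were 4.19 ± 0.41 (adjusted p = 1.51e-06) in the libraries labelled homozygous and 2.34 ± 0.41 (adjusted p = 0.000509) in heterozygotes, and both held whichever library was left out. Indy, which averaged 8895 normalised counts, had folds of -0.50 ± 0.22 in the libraries labelled homozygous and -0.42 ± 0.22 in heterozygotes, which did not pass the test. The highest fat body value of CR32027 came from the replicate that held vas and piwi reads. Without that library and fat body labelled homozygous replicate 1 the folds were 3.85 in the libraries labelled homozygous and 2.63 in heterozygotes. The move to 3.85 comes from leaving out the replicate labelled homozygous, whose value was 0, because heterozygous libraries do not enter that fold.

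CR32027 also differed between the genotypes in fat body, where its fold was -1.83 ± 0.41 (adjusted p = 0.0187). That call rested on 0, 1, 3 and 1 reads in fat body labelled homozygous, against 5, 12, 3 and 7 in heterozygous fat body. The 12 reads came from replicate 2, which held vas and piwi reads. The call ended without heterozygous fat body replicate 2 (0.0564) or replicate 4 (0.0595). It also ended with only the 8 fat body libraries fitted (0.197), and without heterozygous replicate 2 and replicate 1 labelled homozygous (0.0705). The difference between its tissue folds did not pass the test of the interaction.

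**Figure D3:**
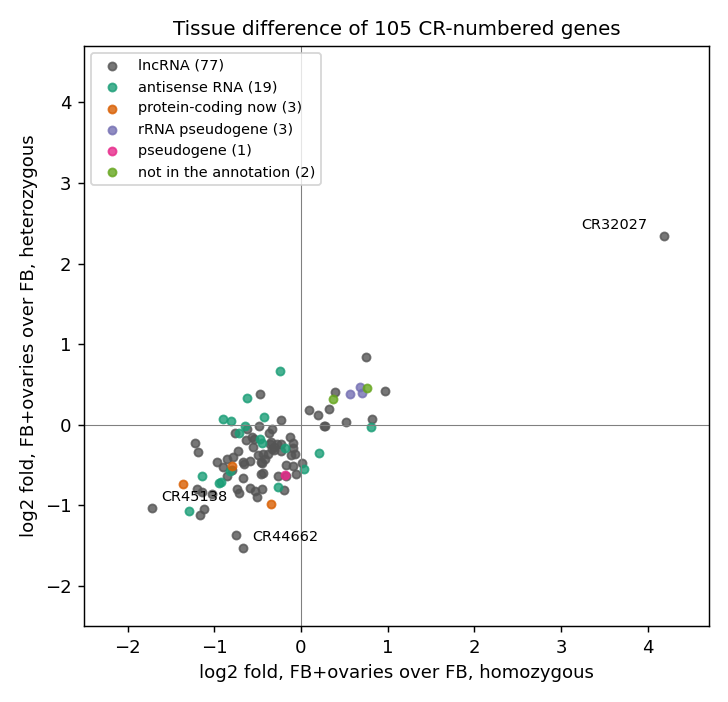
Log2 fold of fat body with ovaries over fat body for each of the 105 CR-numbered genes, in the libraries labelled homozygous (x axis) and in heterozygotes (y axis), coloured by class in the current annotation. CR32027 stands alone at 4.19 and 2.34, and 85 of the 105 genes lie below 0 in the libraries labelled homozygous and 84 in heterozygotes, or 57 and 48 at equal library totals.

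Other genes higher with ovaries had small folds. CR44889, on the X chromosome, had 14.1, 13.8, 19.9 and 14.7 normalised counts in heterozygous fat body with ovaries, against 8.49, 10.2, 7.80 and 6.45 in heterozygous fat body (fold 0.85 ± 0.28, adjusted p = 0.0351). This gene passed the minimum through the groups with ovaries only, so a tissue difference was built into its selection. CR44042 had 12.4, 12.6, 16.4 and 21.2 in fat body with ovaries labelled homozygous, against 7.65, 10.9, 6.82 and 7.99 in fat body labelled homozygous (fold 0.82 ± 0.27, adjusted p = 0.0289). CR44042 passed the minimum through every group but fat body labelled homozygous, so a difference of that group was built into its selection. In neither pair did the groups overlap, yet the call of CR44889 ended without heterozygous fat body with ovaries replicate 1, 3 or 4 or fat body replicate 1, 3 or 4 (adjusted p up to 0.107), and that of CR44042 without replicate 3 or 4 of either tissue labelled homozygous (up to 0.0918). The microRNA gene CR31044, described with its class, was the last of them.

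The lncRNAs lower with ovaries in both genotypes were CR43148, CR32218 and CR44932, with the deposited size factors. At equal library totals none of the 3 passed in either genotype. Their folds there in the libraries labelled homozygous were -0.47 for CR43148 (adjusted p = 0.0786), -0.03 for CR32218 (0.887) and -0.77 for CR44932 (0.128). Heterozygotes gave -0.15 for CR43148 (0.613), -0.08 for CR32218 (0.698) and -0.78 for CR44932 (0.130). Without the filter on low values, or with only the 8 libraries compared, all these calls but that of CR43148 in the libraries labelled homozygous were lost too. CR43148, at chr2L:21624679-21626190, had 33.4, 32.1, 44.5 and 57.3 normalised counts in fat body with ovaries labelled homozygous, against 85.7, 72.8, 70.2 and 77.9 in fat body labelled homozygous. It had 35.2, 25.8, 32.4 and 34.9 in heterozygous fat body with ovaries, against 36.8, 47.1, 49.0 and 53.7 in heterozygous fat body. The groups did not overlap in either genotype. The fold was -0.89 ± 0.19 in the libraries labelled homozygous (adjusted p = 0.00191). It held whichever library was left out but not at equal totals. In heterozygotes the fold was -0.52 ± 0.19 (adjusted p = 0.0479), which was lost in 11 of 16 such fits (adjusted p up to 0.130) and held without replicate 1, 2 or 4 of fat body with ovaries labelled homozygous, or replicate 1 of either fat body group. Df31, a chromatin protein gene that lies 119 bases from CR43148 on the opposite strand, went the other way, with folds of 1.69 ± 0.12 in the libraries labelled homozygous and 1.34 ± 0.12 in heterozygotes, both past the threshold.

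CR32218, at chr3L:19895216-19896391, lies inside the genes of the chromatin remodeller Mi-2 and the elongation factor Su(Tpl) on their strand, without shared exon bases. It had 62.9, 71.0, 52.3 and 72.2 normalised counts in fat body with ovaries labelled homozygous, against 78.0, 104, 92.6 and 80.9 in fat body labelled homozygous (fold -0.46 ± 0.16, adjusted p = 0.0407). In heterozygotes it had 48.3, 65.3, 67.3 and 76.2 with ovaries, against 79.2, 89.0, 106 and 80.6 without (fold -0.47 ± 0.16, adjusted p = 0.0408). The groups did not overlap in either genotype, but single libraries ended both calls. In the libraries labelled homozygous these were fat body with ovaries replicates 1 and 3, fat body replicates 2 and 3 and heterozygous fat body with ovaries replicates 2 and 3 (adjusted p up to 0.127). In heterozygotes they were fat body with ovaries replicates 1, 2 and 3, fat body replicates 2, 3 and 4 and fat body labelled homozygous replicate 3 (up to 0.133). Su(Tpl) was lower too, at -0.44 ± 0.08 in the libraries labelled homozygous and -0.37 ± 0.08 in heterozygotes, whereas Mi-2 was higher, at 0.35 ± 0.11 in the libraries labelled homozygous and 0.39 ± 0.11 in heterozygotes. CR44932, at the minimum level, averaged 7.16 ± 3.25 against 16.7 ± 4.95 in the libraries labelled homozygous and 5.15 ± 2.01 against 12.1 ± 3.68 in heterozygotes (SD, n = 4 each), each time with ovaries against without. CR44932 passed the minimum through the fat body groups only, so a lower mean with ovaries was built into its selection. Its folds were -1.17 ± 0.39 (adjusted p = 0.0311) in the libraries labelled homozygous and -1.12 ± 0.39 (adjusted p = 0.0416) in heterozygotes, and 5 and 6 of the 16 fits without a library lost them, with adjusted p up to 0.0898 without fat body labelled homozygous replicate 3 and 0.110 without heterozygous fat body replicate 4 or fat body with ovaries replicate 2.

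Other lower genes passed in 1 genotype only, and the interaction was called for none of the 105 genes. CR44662, an X-linked lncRNA whose values by library stand with the genotype comparison, had the largest fold in heterozygotes, -1.53 ± 0.33 (adjusted p = 0.0026). CR44662 passed the minimum through every group but heterozygous fat body with ovaries, so a difference of that group was built into its selection. CR44725, inside the gene of the growth factor receptor Egfr at chr2R:21531595-21532195 and on its opposite strand, had 26.1, 24.1, 25.7 and 23.0 normalised counts in heterozygous fat body with ovaries, against 27.4, 40.9, 62.4 and 49.4 in heterozygous fat body (fold -0.78 ± 0.22, adjusted p = 0.0152, and 0.0559 without fat body replicate 3). CR44510, at chr3L:69138-69894 and 143 bases from the storage protein gene Lsp1gamma on the same strand, had 65.4, 55.9, 66.4 and 63.4, against 74.5, 117, 104 and 94.6 in the same groups (fold -0.61 ± 0.18, adjusted p = 0.0193, and 0.0600 or 0.0533 without fat body replicate 2 or 3). CR44268 followed with -0.60 ± 0.20 (adjusted p = 0.0345), a call lost without fat body with ovaries replicate 1, 2 or 4 or fat body replicate 3 or 4, with adjusted p up to 0.118. In none of these 3 pairs of groups did the libraries overlap, and for all 3 the call ended at equal library totals. CR45252 (-0.80 ± 0.28, adjusted p = 0.042) overlapped between the groups, and 10 of the 16 fits without a library lost its call, with adjusted p up to 0.136, as did equal totals (0.205).

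In the libraries labelled homozygous CR45138 had the largest negative fold. It had 19.1, 9.16, 7.02 and 5.49 normalised counts with ovaries, against 41.3, 24.3, 34.1 and 31.9 without (fold -1.72 ± 0.55, adjusted p = 0.0277). CR44284, inside the gene of the GTPase Rab32 on the opposite strand, had 9.53, 17.2, 17.2 and 16.5 with ovaries, against 21.4, 30.3, 28.3 and 41.9 without (fold -0.97 ± 0.26, adjusted p = 0.0103). CR43637, an antisense RNA at chrX:2200623-2201857, had 79.1, 104, 103 and 98.1 with ovaries, against 145, 164, 162 and 158 without (fold -0.71 ± 0.17, adjusted p = 0.0046). None of these groups overlapped. The calls of CR44284 and CR43637 held in all 16 fits that left out a library, and that of CR45138 ended without replicate 3 or 4 of either tissue, with adjusted p up to 0.0782 without fat body with ovaries replicate 4. The others whose groups did not overlap and whose fat body mean was at least 20 were CR44826 (-1.22 ± 0.38), CR43626 (-1.18 ± 0.31), CG43051 (CR43051, -0.80 ± 0.22), CR43493 (-0.79 ± 0.27) and CR44392 (-0.73 ± 0.21). The call of CR44392 ended without fat body replicate 2 (0.0559), that of CR44826 without fat body with ovaries replicate 3 or 4 or fat body replicate 3 (up to 0.0786), and that of CR43493 without fat body with ovaries replicate 2 or 4 or fat body replicate 1 or 3 (up to 0.0995). Lower levels had CR45048, with 7.74 ± 2.64 with ovaries against 18.3 ± 5.85 without (fold -1.14 ± 0.36), a call that ended without fat body with ovaries replicate 1 or fat body replicate 3 or 4 (up to 0.0759) and at equal totals (0.109). CR45048 passed the minimum through every group but fat body with ovaries labelled homozygous, so a difference of that group was built into its selection. At equal totals CR43626 kept its call (adjusted p = 0.0462), and the other 8 of these genes lay between 0.0650 and 0.298.

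Some genes that overlap the called ones had the same call, in the tissue comparisons. Of the 18 genes called in the libraries labelled homozygous, 11 overlapped another tested gene, and 9 of the 11 shared its call, where 19.8% of all genes were higher and 13.2% lower. Among the partners were the fat body and blood cell GATA factor srp, which shares 938 exon bases with CR44133 on the same strand and had a fold of -0.73 ± 0.11 beside -1.12 ± 0.40 (a call that 10 of the 16 fits without a library lost, with adjusted p up to 0.127, and equal totals too, with 0.144), and the acyl-CoA reductase FarO, with -0.70 ± 0.13 beside -0.71 for CR43637. Rab32 had -0.47 ± 0.16 beside -0.97 for CR44284. In heterozygotes 5 of the 10 called genes overlapped a tested gene and 2 shared its call, Egfr (-0.42 ± 0.11) among the partners, where 18.6% of all genes were higher and 10.7% lower. In the genotype comparisons no partner shared the call, for 1 called gene with an overlapping tested gene with ovaries and 3 in fat body. Over all overlapping pairs with a tested coding gene, the folds had the same sign in 48 of 60 pairs in the libraries labelled homozygous and 37 of 60 in heterozygotes. For the genotype folds it was 34 of 60 with ovaries and 32 of 60 in fat body. The share for genes that do not overlap is not given, and 85 and 84 of the 105 tissue folds lay below 0. These counts of signs are therefore no result about overlap. Whether reads of the partner were counted for the CR-numbered gene was not tested.

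Of the antisense RNAs, all 19 of which overlap a coding gene on the other strand, 3 were lower with ovaries in the libraries labelled homozygous: CR43637, CR43629 and CR44690. That is 15.8% of them, near the 13.2% of all genes. At equal library totals none of the 3 passed (adjusted p = 0.165 for CR43637, 0.201 for CR43629 and 0.122 for CR44690). The median fold of the class was -0.62 in the libraries labelled homozygous and, with 0 called, -0.23 in heterozygotes, and the interaction was called for none of the 19. CR43629 averaged 20.6 ± 3.71 normalised counts with ovaries and 37.5 ± 9.05 without, beside the elongase-like CG31522 on the other strand, whose fold was -1.33 ± 0.30. CR44690 averaged 8.78 ± 3.02 with ovaries and 17.0 ± 1.52 without (SD, n = 4 each), and its opposite genes Cyp4ae1 and Cyp4d2 were below 1 normalised count on average. CR44690 passed the minimum through every group but fat body with ovaries labelled homozygous, so a difference of that group was built into its selection. The call of CR43629 ended without replicate 3 of either tissue (adjusted p up to 0.0576), and that of CR44690 without fat body with ovaries replicate 3 (0.0613). Neither genotype comparison called an antisense RNA.

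Among the lncRNAs 5 contain microRNA hairpins on their strand, and they did not move alike. CR43626 holds mir-282, CR31044 holds mir-279 and mir-996, CR43459 holds mir-34 and mir-277, CR44327 (now lncRNA:CR46006) holds mir-276a and CR43650 holds mir-8, a regulator of growth in the fat body. The hairpins themselves had rows in the table and no reads, so the values are those of the longer precursors. CR43626, at chr3L:3249340-3254504, had 13.3, 29.8, 25.0 and 14.1 normalised counts in fat body with ovaries labelled homozygous, against 42.8, 66.8, 39.0 and 37.9 in fat body labelled homozygous (fold -1.18 ± 0.31, adjusted p = 0.00892). These groups did not overlap and the call held whichever library was left out. In heterozygotes it had 21.1, 25.8, 19.1 and 15.6 with ovaries, against 20.8, 20.5, 44.6 and 22.6 without, and the groups overlapped. CR31044, at chr3R:29214562-29219667, went the other way: it had 26.7, 42.4, 28.1 and 33.0 with ovaries, against 9.18, 25.5, 8.77 and 29.9 without in the libraries labelled homozygous (fold 0.97 ± 0.33, adjusted p = 0.0369). Its groups overlapped, and the call ended without fat body with ovaries replicate 2, 3 or 4 or fat body replicate 1 or 3, with adjusted p up to 0.123 without fat body replicate 3.

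CR43459, at chr3R:10093761-10101356, was the microRNA precursor with the largest genotype folds. It had 353, 53.8, 151 and 135 normalised counts in fat body with ovaries labelled homozygous, against 41.2, 22.3, 24.9 and 56.0 in heterozygous fat body with ovaries. In fat body it had 516, 47.3, 177 and 169 in the libraries labelled homozygous, against 92.4, 17.4, 33.4 and 59.1 in heterozygotes. Replicate 1 was high and replicate 2 low in the libraries labelled homozygous of either tissue, and the groups overlapped. Within each replicate number the library labelled homozygous was the higher one in 4 of 4 pairs of either tissue. Its folds, 2.02 ± 0.69 with ovaries against 1.93 ± 0.69 for fat body alone, did not pass the test (adjusted p = 0.174 and 0.125), but in the blocked fit, by replicate number, they did (0.00308 and 0.00241). CR44327 ranged from 23.1 to 161 normalised counts and CR43650 from 20.6 to 45.9, and no comparison called either.

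**Figure D4:**
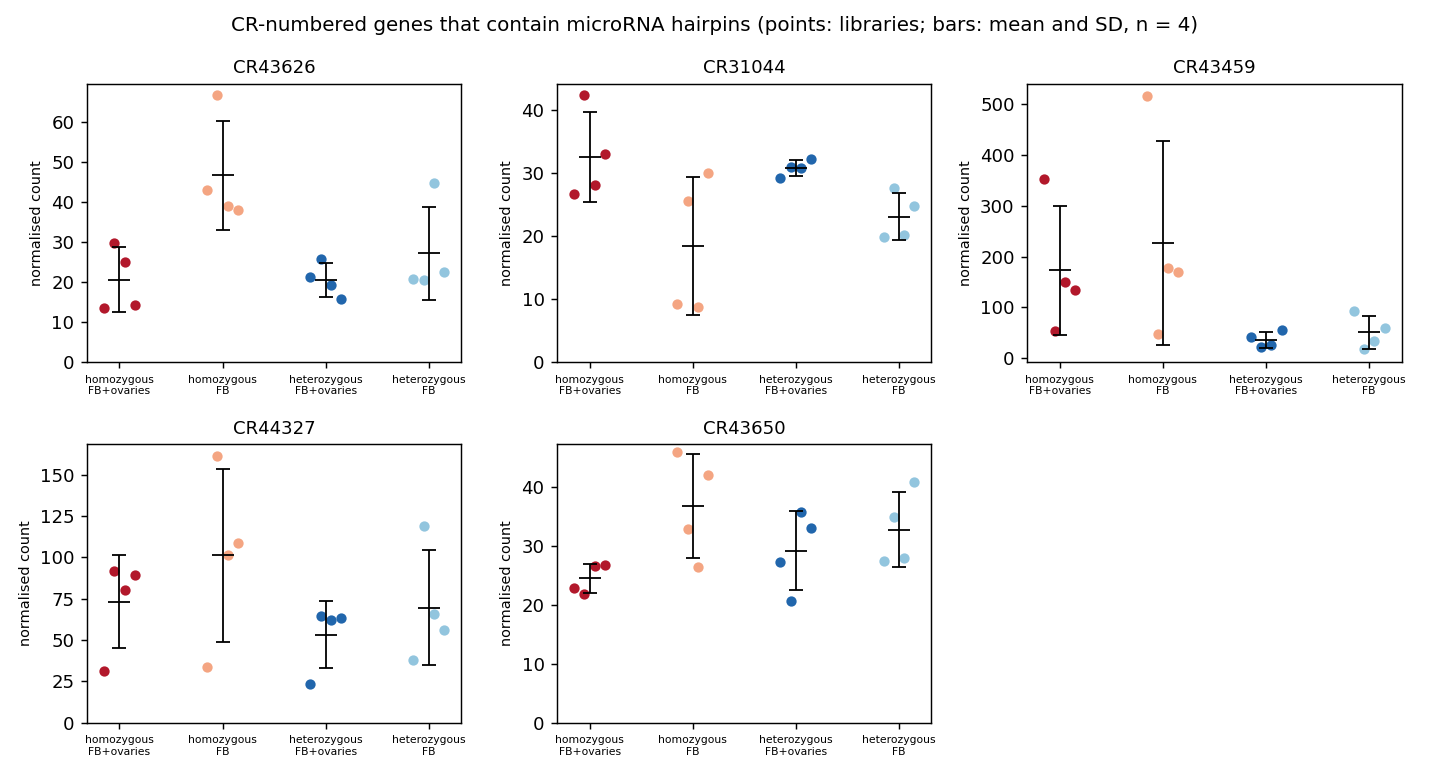
Normalised counts of the 5 lncRNAs that contain microRNA hairpins, by group. Points are libraries, and bars give the mean and SD of 4 libraries. CR43626 is highest in fat body labelled homozygous, and CR43459 spreads from 47.3 to 516 in the libraries labelled homozygous and from 17.4 to 92.4 in heterozygotes.

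The second comparison asked what differs in the libraries labelled homozygous against heterozygotes in the same tissue. Few of the 105 genes did. With ovaries 2 were higher and 1 lower, against 0.92% higher and 1.19% lower of all genes tested, and in fat body 2 were higher and 4 lower, against 2.29% and 3.11%. These counts are near the shares of all genes. The median fold was 0.01 with ovaries and 0.12 in fat body, against -0.00 over all genes in both. At equal library totals the median of all genes in fat body moved to -0.11, and 0 of the 105 genes were higher and 4 lower there, against 0.882% and 5.46%. Blocked by replicate number, 8 were called with ovaries and 14 in fat body, against 8.44% and 15.1% of all genes, in either direction. The number called moved with single libraries: with ovaries 0 were called without the library labelled homozygous replicate 1, and 1 without heterozygous replicate 1, 3 or 4. Over the 16 fits without a library the 3 folds called with ovaries ran from -2.41 to -2.02 (CR44039), 0.63 to 0.82 (CR44809) and 1.41 to 1.82 (CR44662). In fat body 3 were called without the library labelled homozygous replicate 1, 2 without its replicate 3, 1 without heterozygous replicate 2 and 2 without heterozygous replicate 3 or 4. The shares of all genes in these fits are not given here either. Chromosome 3, which carries the balancer in heterozygotes, held 1 of the 3 genes called with ovaries and 3 of the 6 called in fat body. Of all kept genes 3.32% on 3L and 3.68% on 3R were called with ovaries, against 0.738% to 1.37% on the X and both arms of chromosome 2. In fat body the shares were 8.48% on 3L and 7.94% on 3R, against 2.58% to 3.68%.

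CR44039 had the largest genotype fold that passed the test. This lncRNA of 2 exons at chr3R:12268784-12270223 lies inside the gene of the nuclear receptor svp, on its strand and without shared exon bases. It had 5.72, 10.3, 6.24 and 14.1 normalised counts in fat body with ovaries labelled homozygous, against 30.2, 41.3, 59.8 and 44.1 in heterozygous fat body with ovaries. In fat body it had 6.12, 17.0, 4.87 and 17.0 in the libraries labelled homozygous, against 39.6, 86.0, 84.7 and 46.2 in heterozygotes. All 8 libraries labelled homozygous lay below all 8 heterozygous ones. CR44039 passed the minimum through every group but fat body with ovaries labelled homozygous, so a difference of that group was built into its selection. The fold was -2.19 ± 0.42 with ovaries (adjusted p = 0.0148), and that call ended without the library labelled homozygous replicate 1 (0.0522) or heterozygous replicate 3 (0.0596). In fat body it was -2.51 ± 0.42 (adjusted p = 0.00258), which held whichever library was left out and missed the threshold when only the 8 fat body libraries were fitted (0.0525). svp itself averaged 2894 normalised counts and had folds of 0.14 ± 0.10 with ovaries and 0.06 ± 0.10 in fat body, neither called.

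CR44809, CR44662, CR43148, CR32194 and CR44042 also had groups that did not overlap where they were called. CR44809, at chr2L:22169668-22170204 and 525 bases from the gene of the dosage compensation factor Clamp, had 41.0, 36.7, 51.5 and 45.5 with ovaries in the libraries labelled homozygous, against 28.2, 29.2, 19.9 and 25.7 in heterozygotes (fold 0.74 ± 0.17, adjusted p = 0.0411). Its fat body values were 52.0, 64.3, 61.4 and 60.9, against 41.5, 26.6, 37.9 and 38.7 (fold 0.72 ± 0.17, adjusted p = 0.0272). It was thus higher in the libraries labelled homozygous in both tissues, with no overlap. Both calls ended at equal library totals (adjusted p = 0.0590 with ovaries and 0.0542 in fat body), without the filter on low values (0.107 and 0.0788), with only the 8 libraries compared (0.0728 and 0.137) and without single libraries. With ovaries the call held only without the library labelled homozygous replicate 2, fat body labelled homozygous replicate 1 or heterozygous fat body replicate 1 or 2, with adjusted p up to 0.144 in the other 12 fits. The fat body call ended without the library labelled homozygous replicate 2 or 3 or heterozygous replicate 2, 3 or 4 (up to 0.0719). Clamp was not called.

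CR44662, at chrX:15077498-15081255, had 16.2, 20.6, 14.8 and 18.8 normalised counts in fat body with ovaries labelled homozygous, against 4.02, 7.73, 6.64 and 2.76 in heterozygous fat body with ovaries (fold 1.63 ± 0.33, adjusted p = 0.0181). In fat body it had 35.2, 21.8, 31.2 and 27.0 in the libraries labelled homozygous, against 23.6, 9.21, 22.3 and 14.0 in heterozygotes, where the groups overlapped and the fold of 0.77 ± 0.33 was not called. Heterozygous fat body with ovaries was the lowest group and fat body labelled homozygous the highest. The lowest group alone lay under the minimum, so its difference was built into the selection. Both calls of CR44662, by tissue in heterozygotes and by genotype with ovaries, rest on that group and are not separate results. The call with ovaries ended without the library labelled homozygous replicate 1, 2 or 4 or heterozygous replicate 1 or 4, with adjusted p up to 0.0631 without heterozygous replicate 4. CR43148 was higher in fat body labelled homozygous than in heterozygous fat body by 0.71 ± 0.19 (adjusted p = 0.0402), a call that 12 of the 16 fits without a library lost, with adjusted p up to 0.0818, and that ended at equal totals (0.104).

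CR32194, at chr3L:18085305-18087058, had 47.4, 86.2, 80.9 and 145 normalised counts in fat body labelled homozygous, against 179, 188, 215 and 216 in heterozygous fat body. The groups did not overlap, and the fold was -1.25 ± 0.30 (adjusted p = 0.0278). The call ended without the library labelled homozygous replicate 1 (0.0576) or 3 (0.0713) or heterozygous replicate 2 (0.0569), 3 (0.0786) or 4 (0.0794). With ovaries it had 36.2, 76.8, 56.9 and 85.5, against 81.5, 121, 132 and 128, a fold of -0.89 ± 0.30 that passed only with the replicate block (adjusted p = 0.172 without it and 0.0132 with it). It shares 288 exon bases with CG34253 on the same strand, whose fat body fold was -0.03 ± 0.31.

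CR45593 behaved in the same way under the block. It lies at chr3R:6761513-6763478, opposite the immunoglobulin-domain gene Ama, and had 49.6, 93.9, 160 and 175 normalised counts in fat body with ovaries labelled homozygous, against 224, 168, 362 and 258 in heterozygous fat body with ovaries. In fat body it had 85.7, 158, 335 and 498, against 226, 285, 842 and 708. The groups overlapped, and within each replicate number the library labelled homozygous was the lower one in 4 of 4 pairs of either tissue. Its fold was -1.18 ± 0.56 with ovaries (adjusted p = 0.384, and 0.0201 with the block) and -1.02 ± 0.56 in fat body (adjusted p = 0.348, and 0.0249 with the block). CR44042 (-0.99 ± 0.27 in fat body, adjusted p = 0.0448) was the last call, which 13 of the 16 fits without a library lost, with adjusted p up to 0.137.

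**Figure D5:**
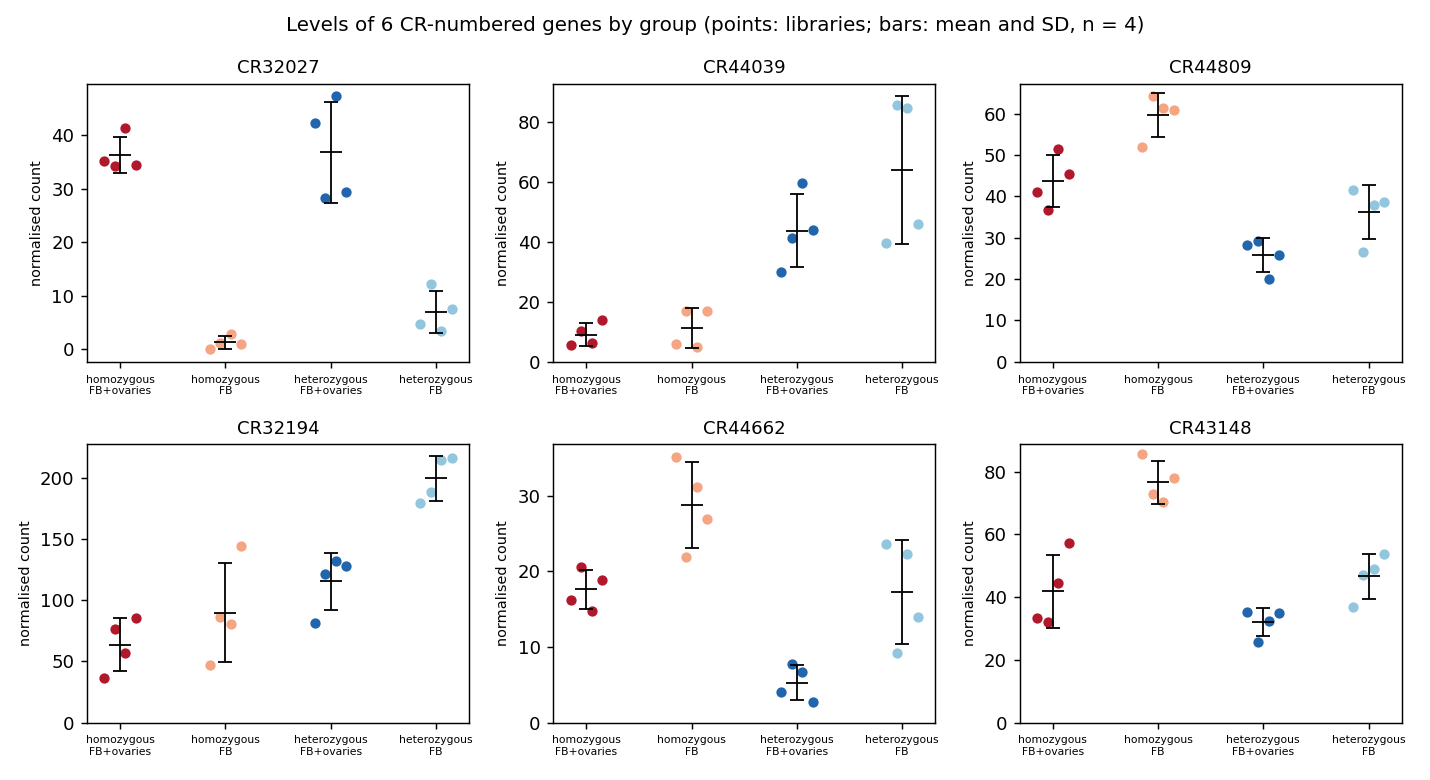
Normalised counts of 6 CR-numbered genes called in a genotype comparison, by group. Points are libraries, and bars give the mean and SD of 4 libraries. CR44039 is below 18 in all 8 libraries labelled homozygous and above 30 in all 8 heterozygous ones, and CR32027 separates the tissues instead.

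The interaction, which asks whether the tissue fold differs between the genotypes, was called for 0 of the 105 genes by limma, against 0.0511% of all genes. At an unadjusted p of 0.05 limma gave 3 genes, and edgeR and DESeq2 called 0 after adjustment. Named non-coding RNA genes outside the CR numbers served as a list beside them, of which 16 of 29 in the table were tested. In each tissue comparison 1 was higher and 1 lower, and neither genotype comparison called any. pncr016:2R was the lower one in both: it averaged 111 normalised counts with ovaries and 246 without in the libraries labelled homozygous (fold -1.13, adjusted p = 0.00236), and 76.0 with and 219 without in heterozygotes (fold -1.46, adjusted p = 0.000342). The snoRNA host Uhg1 was higher with ovaries in heterozygotes (fold 1.19, adjusted p = 0.0443) and pncr013:4 in the libraries labelled homozygous (fold 1.11, adjusted p = 0.00677).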

How the data were processed

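Per the submitters' processing notes, the tools were Trimmomatic 0.36 for trimming, STAR 2.5.2b for alignment (dm6) and featureCounts (Subread 1.5.0p3) for counting. The deposited table gives a signal per gene and library, counts divided by a size factor by the authors, and its name gives DESeq2 as the tool. Dividing by the value of 1 read gave whole reads for 100% of values within 1e-06 (largest deviation 2.14e-08). In replicate 4 of fat body labelled homozygous and replicate 1 of heterozygous fat body with ovaries that value lies too near 1 for the automatic test of such steps. The members, gene lists and tests were chosen with earlier results of these data known.

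The kept genes averaged at least 10 normalised counts. Values were fitted as log2 after adding 1 with limma 3.58.1 (R 4.3.3), 1 mean per group over all 16 libraries, intensity trend, moderated variances and 2-sided tests adjusted by Benjamini-Hochberg across the kept genes, with a threshold of 0.05. The ± after a fold is its standard error. edgeR 4.0.16 and DESeq2 1.42.0 on the recovered reads were alternatives, with equal library totals, pseudocounts of 0.5 and 5, no filter, the 8 libraries compared alone, a replicate block, leaving out each library, and leaving out heterozygous fat body replicate 2 with fat body labelled homozygous replicate 1. The model was also run on simulated counts, for the tissue comparison of heterozygotes only. Every simulated gene had the same replicate variability and there was no replicate effect. That run therefore cannot decide how reliable the calls of these genes are. Libraries of the same replicate number deviated together in the libraries labelled homozygous (r = 0.610, 0.424, 0.198 and 0.476 across genes) and between genotypes with ovaries (0.253, 0.417, 0.173 and 0.415) and in fat body (0.676, 0.385, 0.291 and 0.213), so blocked values stand beside those results where they change a call.

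Named genes are, per comparison, the called members with no overlap between groups and a higher group mean of at least 20, up to 10 in each direction, the 10 highest means, and the neighbours of the minimum. CR44889, CR44042, CR44932, CR44662, CR45252, CR45048, CR44133, CR43629, CR44690, the antisense class and the microRNA hosts were added after their values were seen. Positions came from Ensembl release 115, in which 16512 of the 16727 rows and 7731 of the kept genes were placed, and overlapping genes or those within 1000 bases were listed. A value of 0 allows up to 3 reads, for counting error only. No gene sequences were used here.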

Additional observations from a re-analysis of the deposited data

Results flagged for a closer look

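Among 104 groups of 4 libraries, of 26 named members, 9 held a library far from the others by Dixon's test, and chance gives such a library in about 1 in 20 groups. CG45045 (CR45045) had 3 of them: 849 normalised counts in fat body with ovaries labelled homozygous replicate 1, 471 in fat body labelled homozygous replicate 1 and 597 in heterozygous fat body with ovaries replicate 2, each far above the rest of its group. CR43626 had 2, at 66.8 in fat body labelled homozygous replicate 2 and 44.6 in heterozygous fat body replicate 3. High values also stood apart for CR32027 in fat body with ovaries labelled homozygous replicate 3 (41.3) and for CG43051 (CR43051) in heterozygous fat body with ovaries replicate 2 (290). Low values stood apart for CR44284 in fat body with ovaries labelled homozygous replicate 1 (9.53) and for CR45138 in heterozygous fat body with ovaries replicate 3 (2.49).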

How the results depend on the processing

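Of 575 alternative values of the 23 named folds, 456 kept their direction and side of the threshold, 119 kept the direction and missed the threshold, and 0 reversed. The named folds were chosen for groups that do not overlap. Leaving out libraries, changing the pseudocount or adding the block therefore could not reverse them, and the lack of reversals is no support. The 3 folds that held everywhere were the tissue folds of CR32027 in both genotypes and of CR43626 in the libraries labelled homozygous. CR32027 passed the minimum through the groups with ovaries only, so a tissue difference was built into its selection and its folds are no separate support. The members called numbered 10 in the tissue comparison of heterozygotes, with 6 at equal library totals, 4 without the filter on low values, 21 with the replicate block and 4 to 13 when single libraries were left out. In the libraries labelled homozygous they numbered 18, with 8 at equal totals, 35 with the replicate block, 34 without heterozygous fat body replicate 2 and fat body labelled homozygous replicate 1, and 10 to 33 without single libraries. In the genotype comparison with ovaries they numbered 3, with 8 under the replicate block and 0 to 3 without single libraries. In fat body they numbered 6, with 3 without the filter, 14 under the replicate block, 0 when only the 8 libraries compared were fitted, 2 without the pair of fat body libraries and 1 to 6 without single libraries. On the recovered reads edgeR called 11 members in the tissue comparison of heterozygotes, 20 in that of the libraries labelled homozygous, 3 in the genotype comparison with ovaries and 6 in fat body. The interaction stayed at 0 under all alternatives run. Of all genes, 45.1% were called in the tissue comparison of heterozygotes with the replicate block and 44.7% at equal totals. In the libraries labelled homozygous these shares were 48.0% and 46.9%. Blocked, 8.44% were called in the genotype comparison with ovaries and 15.1% in fat body. Shares of all genes in the other fits are not given here, so their counts show only how the calls moved. The cause of these shifts was not tested.

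In the tissue comparison of heterozygotes the libraries share only a replicate number (r = 0.284, 0.015, 0.040 and 0.225 across genes). Low counts limit precision: 34 of the 105 members average under 20 normalised counts.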
